A study of Mus musculus with 6 samples.

Results

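Wnt genes were examined by bulk RNA sequencing in cultured primary smooth muscle cells of mouse vessels, with and without Ncor1. The set covered Wnt ligands, their receptors, the secreted proteins that block or strengthen them, and 3 intracellular genes (Axin2, Lef1 and Tcf7). It was collected by gene symbol: numbered Wnt, Fzd, Sfrp, Dkk and Rspo genes, Lgr4 to Lgr6, and Lrp5, Lrp6, Ror1, Ror2, Ryk, Wif1, Frzb, Axin2, Lef1 and Tcf7. Of 44792 genes in the count table, 54 matched, and 46 of these had at least 1 count. There were 3 libraries of Ncor1-/- cells (I-KO), from mice with a smooth muscle deletion of Ncor1, and 3 of wild type cells (I-WT), from littermate controls. Ncor1 encodes a corepressor that nuclear receptors and other transcription factors recruit. All were C57BL/6, and the cultures received 4-OHT (4-hydroxytamoxifen), the agent that induces the deletion. The design text names that treatment once for the cells of both groups, and the labels used here name neither the Cre driver nor the age of the mice. The design text speaks both of 3 mice and of 3 technical replicates per group, and the p-values may therefore reflect technical spread alone.

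Wnts are lipid-modified secreted proteins that bind Frizzled receptors. With the co-receptors LRP5 or LRP6 they spare beta-catenin from destruction, and beta-catenin then works with TCF and LEF factors in the nucleus. ROR and RYK receptors carry signals that do not need beta-catenin. Secreted frizzled-related proteins (SFRP) and WIF1 bind Wnts, Dickkopf proteins such as DKK1 and DKK2 bind the LRP co-receptors, and R-spondins strengthen Wnt signals through LGR receptors. In vessels, Wnt signals are known to act on growth and migration of smooth muscle cells and on formation of endothelial barriers.

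Depth was 7125538 to 9579490 counts per I-KO library and 7231968 to 9005690 per I-WT library, and 3 counts, the upper limit for a gene with none, were worth 0.298 to 0.439 CPM (counts scaled to library size). CPM below are scaled by TMM, edgeR's factors for library composition. Ncor1, examined first, had 99.3, 93.7 and 94.4 CPM in I-KO and 213, 223 and 230 CPM in I-WT libraries (log2 fold change -1.21, SE 0.0445, adjusted p = 1.08e-33). Counts cover the whole gene, and the deleted exons are not named in the labels. In this text 'without Ncor1' names the I-KO cells by their label, and Ncor1 counts remained in them. Smooth muscle markers were present in both groups, summing to 3919 to 4123 CPM over 10 markers in I-KO and 11531 to 11724 CPM in I-WT libraries, and 9 of 10 were lower in I-KO. Endothelial markers summed to 8000 to 8161 CPM in I-KO against 2384 to 2476 CPM in I-WT libraries, with 19 of 20 higher, 1 lower and none at 0. Macrophage and leukocyte markers summed to 630 to 680.4 CPM in I-KO against 52.5 to 78.7 CPM in I-WT libraries, with 18 of 20 higher and none at 0. Of these markers 9 passed the filter on low counts (1.28 CPM in 3 libraries) through I-KO libraries alone, so a higher level was the only one they could show. Adventitial fibroblast markers summed to 5498 to 5750 CPM in I-KO against 18203 to 20140 CPM in I-WT libraries, with 3 of 9 tested higher and 6 lower, Scara5 among the 9 having passed the filter through I-WT libraries alone. Most of both sums came from 2 of the 6 lower genes, Col1a1 (mean 2479 CPM in I-KO, 9297 in I-WT) and Col1a2 (1952 and 9422). The 3 higher genes were Dcn (321 CPM in I-KO, 26.1 in I-WT), Cd34 (766 and 223) and Ly6a (25.5 and 17.9), so the sum does not describe the whole list. Of all tested genes 26.4% were higher and 26.2% lower. The part these marker shifts have in the results below was not tested. Fewer cells of a type and less RNA per cell cannot be told apart in bulk samples.

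Most of the Wnt genes that could be tested differed between the genotypes, and most of those were lower without Ncor1. By edgeR's quasi-likelihood test, adjusted by Benjamini-Hochberg over 13323 genes at a threshold of 0.05, 7 of 31 tested Wnt genes were higher in I-KO, 19 were lower and 5 did not pass. The background is wide: 52.6% of all tested genes were called, 26.4% higher and 26.2% lower. The tested Wnt genes had a median log2 fold change of -0.93 (I-KO over I-WT), beside -0.0039 over all tested genes. Changes of at least 2-fold were called in 17 of the 31 (54.8%; 13% of all tested genes), 3 of them higher and 14 lower. Changes of at least 4-fold were called in 8 (3.96% of all tested genes), all 8 lower. In 27 of the 31 tested Wnt genes the 3 I-KO libraries did not overlap the 3 I-WT libraries, which held for 57.8% of all tested genes. All 26 called Wnt genes are among the 27. The filter on low counts shapes these numbers: Wnt16, Fzd9 and Rspo3 entered the test through I-WT libraries alone, so a lower level was the only one they could show. With library totals in place of TMM factors the median of all genes moved to 0.13 and 68.8% of all calls were higher instead of 50.1%, and the Wnt genes then had 7 higher and 18 lower.

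**Figure D1:**
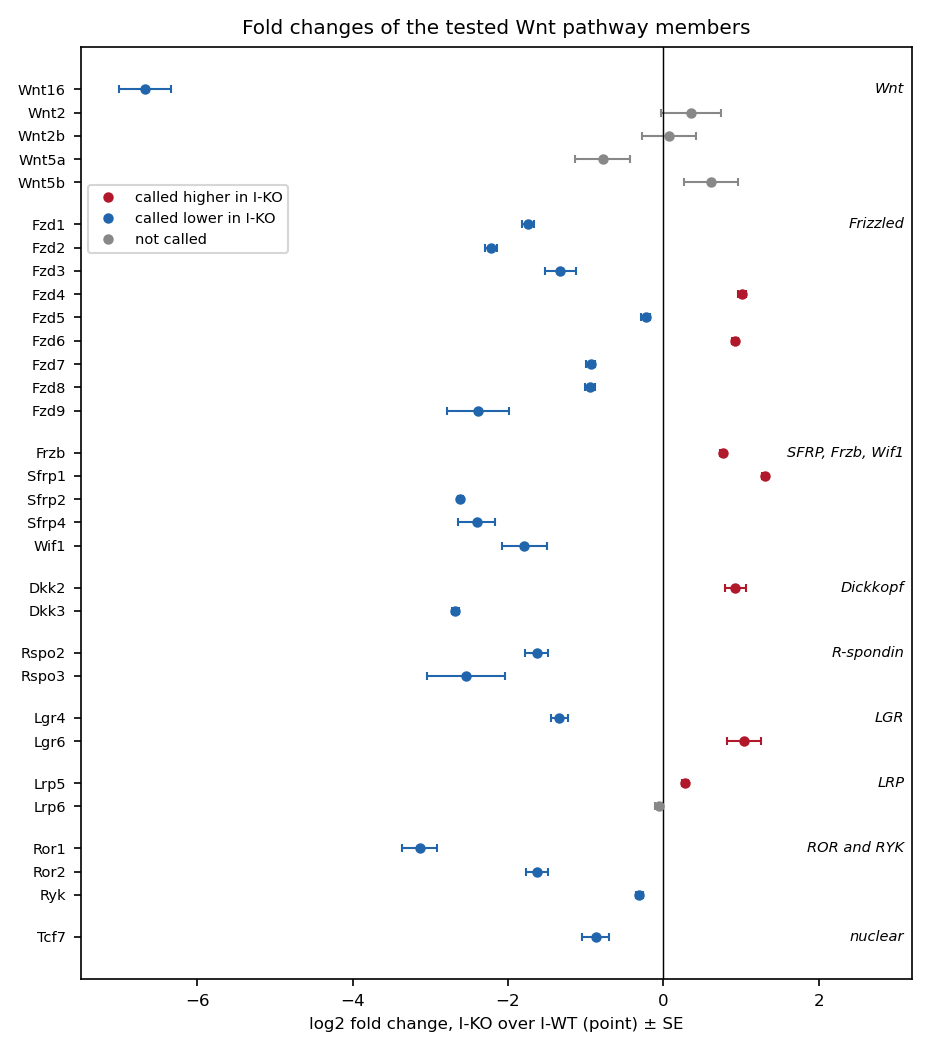
Log2 fold change, I-KO over I-WT, of the 31 tested Wnt genes, grouped by role, as points with bars of 1 SE from edgeR. Wnt16 stands farthest to the left at -6.67, and the points on the right at or above 0.92 are Sfrp1, Lgr6, Fzd4, Dkk2 and Fzd6.

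Promoters of genes that moved apart within the antagonists and ligands are shown so that their sequence can be read beside the values that follow. They are the 250 bases before the annotated start, from RefSeq on GRCm38.p6, 5′ to 3′ on the strand of the gene, with capitals for matches to AGGTCA (nuclear receptor half-site, either strand) and to TATAAA (core promoter element, gene strand). Wnt16 and Sfrp2 were lower in I-KO, Frzb and Dkk2 higher. Wnt16 lies at chr6:22287977-22288226 on the plus strand, Sfrp2 at chr3:83766071-83766320 on the plus strand, Frzb at chr2:80447397-80447646 on the minus strand and Dkk2 at chr3:132085042-132085291 on the plus strand.
Wnt16: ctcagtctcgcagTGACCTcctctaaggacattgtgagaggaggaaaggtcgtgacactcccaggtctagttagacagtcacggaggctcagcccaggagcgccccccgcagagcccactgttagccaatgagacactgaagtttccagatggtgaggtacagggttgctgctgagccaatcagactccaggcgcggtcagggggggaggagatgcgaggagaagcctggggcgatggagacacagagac
Sfrp2: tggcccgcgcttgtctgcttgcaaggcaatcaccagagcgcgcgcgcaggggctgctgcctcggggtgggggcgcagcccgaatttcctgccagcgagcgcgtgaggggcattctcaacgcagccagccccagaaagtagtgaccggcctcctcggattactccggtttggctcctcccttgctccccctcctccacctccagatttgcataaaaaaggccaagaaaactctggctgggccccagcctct
Frzb: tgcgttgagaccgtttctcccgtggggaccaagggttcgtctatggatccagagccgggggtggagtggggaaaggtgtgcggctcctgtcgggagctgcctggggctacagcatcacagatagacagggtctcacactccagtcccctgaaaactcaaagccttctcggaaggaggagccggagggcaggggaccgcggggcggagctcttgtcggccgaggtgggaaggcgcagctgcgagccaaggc
Dkk2: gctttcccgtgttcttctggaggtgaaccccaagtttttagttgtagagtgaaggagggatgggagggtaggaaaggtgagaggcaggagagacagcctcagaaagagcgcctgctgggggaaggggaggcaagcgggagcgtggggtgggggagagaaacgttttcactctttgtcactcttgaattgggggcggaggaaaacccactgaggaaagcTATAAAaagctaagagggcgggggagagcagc
The half-site AGGTCA was found in Wnt16, in the form TGACCT, and in neither Sfrp2, Frzb nor Dkk2. It occurs in 14% of all 32851 promoters in the table. Of 12 lower Wnt genes with a promoter that was searched, Wnt16 and Tcf7 held it, and of 4 higher ones 0. Promoters of Wnt genes on 1 chromosome were left out of this search, though not out of the share over all promoters. Other Wnt genes had no promoter to search, Sfrp1, Dkk3, Fzd6, Fzd2 and Rspo2 among them. Only 16 of the 26 called Wnt genes were therefore searched. The TCF and LEF core ATCAAAG, searched on both strands and present in 3.21% of all promoters, was in 0 of these 16 genes and in 2 of all 37 Wnt genes searched, Wnt11 and Wnt5b. TATAAA stood in 1 of the 4 higher genes, Dkk2, in 1 of the 12 lower ones, Fzd1, and in Dkk1 and Wnt11, which were not tested. It occurs in 7.59% of all promoters. The letters describe these windows only. GC content had a median of 64.8% in the higher and 64.4% in the lower Wnt genes, against 52.4% over all promoters.

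Among the ligands, Wnt16 was the one with an appreciable level, and it was nearly absent without Ncor1. Wnt16, a ligand best known from bone and joint tissue, had 0.255, 0 and 0.0994 CPM in I-KO libraries 1 to 3, against 14.6, 11.7 and 14.6 CPM in I-WT libraries. All 3 I-KO libraries lay far below every I-WT library. That is 3 counts in I-KO against 316 in I-WT, 115 times as many after scaling (exact 95% interval 39.0 to 560.5, counting error only; edgeR adjusted p = 2.35e-26). Wnt16 passed the filter on low counts through I-WT libraries alone, so a lower level was the only one it could show. No other ligand passed the test. Wnt5a, the ligand typical of signals without beta-catenin, had 1.15, 1.62 and 0.994 CPM in I-KO and 1.16, 2.06 and 3.36 CPM in I-WT libraries (log2 fold change -0.78, SE 0.355, adjusted p = 0.0587). Its groups overlapped, and the call depended on the libraries used: it passed without I-KO replicate 2 (adjusted p = 0.0483) and without I-WT replicate 1 (0.0102). Its close relative Wnt5b gave 0.61 (SE 0.348, adjusted p = 0.138), Wnt2 0.35 (SE 0.391) and Wnt2b 0.075 (SE 0.35). Wnt2b is so close to 0 that its sign turned without I-KO replicate 3 (-0.11) or I-WT replicate 3 (-0.03).

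The remaining ligands were at or near the floor. Wnt3, Wnt3a, Wnt6, Wnt7a, Wnt8b and Wnt9b had 0 counts in all 6 libraries, and 8 ligands had counts too few to be tested. Of these, Wnt4 had 17 counts in I-KO and 5 in I-WT libraries, of which 12 came from I-KO library 3. Wnt11 had 17 and 14, Wnt9a 13 and 12, and Wnt10b 6 and 6. The deposited FPKM values, which are scaled to gene length and library total and so allow levels of different genes to be set side by side, summed over all ligands to 2.49, 3.00 and 2.67 in I-KO against 7.66, 6.80 and 8.09 in I-WT libraries. Wnt16 made up 4.56%, 0% and 1.66% of that sum in I-KO and 77.3%, 70.4% and 72.9% in I-WT libraries. The largest part in I-KO libraries was that of Wnt5b, at 32.4% ± 7.97 against 6.91% ± 2.93 in I-WT libraries (SD, n = 3 each), with a level of 0.892 ± 0.304 FPKM in I-KO and 0.508 ± 0.188 FPKM in I-WT.

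Among the Frizzled receptors, Fzd4 and Fzd6 were higher without Ncor1 and the other 7 tested receptors lower. Of 9 tested receptors 2 were higher in I-KO and 7 lower, against 26.4% and 26.2% of all tested genes. Fzd6, which is linked to tissue polarity, had 200.1, 212 and 210.0 CPM in I-KO and 108, 115 and 104 CPM in I-WT libraries. The I-KO libraries were all higher, by 1.90-fold (log2 fold change 0.92, SE 0.0444, adjusted p = 1.35e-27). Fzd4, the receptor of the vessel growth factor norrin as well as of Wnts, had 172, 157 and 159 CPM in I-KO and 76.5, 84.9 and 80.1 CPM in I-WT libraries. It too was higher in every I-KO library (1.01, SE 0.0493, adjusted p = 2.42e-27). Fzd4 is well known from endothelial cells, and the endothelial marker sum was also higher in these libraries (8000 to 8161 CPM in I-KO, 2384 to 2476 CPM in I-WT). A link between Fzd4 and that sum was not tested. Norrin itself, Ndp, had 1 count in I-KO and 2 in I-WT libraries.

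The 7 lower receptors took in the closely related Fzd1, Fzd2 and Fzd7 and the pair Fzd5 and Fzd8. Fzd2 had 21.2, 15.9 and 21.4 CPM in I-KO and 90.7, 86.8 and 98.8 CPM in I-WT libraries, without overlap (log2 fold change -2.22, SE 0.0768, adjusted p = 3.95e-33). Fzd1 had 21.1, 23.2 and 21.0 CPM in I-KO and 78.7, 64.5 and 73.8 CPM in I-WT libraries (-1.74, SE 0.0774). Fzd7 had 49.0, 49.4 and 51.4 CPM in I-KO and 101, 91.0 and 93.9 CPM in I-WT libraries (-0.93, SE 0.0587). These 3 relatives were thus lower in every I-KO library, with Fzd7 keeping the most. Fzd8 had 35.5, 42.0 and 35.7 CPM in I-KO and 70.1, 71.8 and 75.6 CPM in I-WT libraries (-0.95, SE 0.0672). Fzd5 differed least of the 9, with 57.8, 59.2 and 52.1 CPM in I-KO and 65.8, 64.6 and 66.8 CPM in I-WT libraries (-0.23, SE 0.062, adjusted p = 0.00141). Its call depended on scaling: with library totals the change was -0.09 (adjusted p = 0.193). Fzd3, a receptor of neuronal polarity, had 2.17, 3.37 and 3.08 CPM in I-KO and 7.33, 7.08 and 7.31 CPM in I-WT libraries (-1.32, SE 0.203). The low-expressed Fzd9 had 12 counts in I-KO and 59 in I-WT, a ratio of 5.37 (exact 95% interval 2.85 to 10.97), and Fzd10 had 1 count in all. Fzd9 passed the filter on low counts through I-WT libraries alone, so it could come out only lower.

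Summed over the family, Frizzled FPKM came to 119, 122 and 121 in I-KO against 128, 125 and 128 in I-WT libraries, a ratio of 0.95 on library totals and 0.866 with TMM factors applied. Within that sum Fzd4 and Fzd6 together held 65.0%, 64.4% and 65.2% in I-KO and 28.2%, 31.2% and 27.7% in I-WT libraries. Fzd1, Fzd2, Fzd7 and Fzd8 together held 27.7% ± 0.222 in I-KO and 62.5% ± 1.77 in I-WT (SD, n = 3 each). Shares within a library do not depend on scaling. The I-KO and I-WT libraries did not overlap in either share, and the exact two-sided permutation test gave p = 0.1, the smallest that 3 against 3 allows. Both sets of receptors follow the direction of the calls in these same libraries, so the separation of their shares gives no separate support. Fzd5, called lower but in neither set, held 7.06% in I-KO and 7.13% in I-WT. The leading receptor was Fzd6 in both groups, at 53.0 ± 1.77 FPKM in I-KO and 25.5 ± 1.43 FPKM in I-WT. In I-WT it stood within the spread of Fzd2 (24.2 ± 1.44 FPKM), whereas Fzd2 in I-KO had 5.61 ± 0.908 FPKM.

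Of the LRP co-receptors, Lrp5 was slightly higher without Ncor1 and Lrp6 did not pass the test. Lrp5 had 217, 224 and 220.4 CPM in I-KO and 182, 174 and 187 CPM in I-WT libraries, a 1.22-fold difference without overlap (log2 fold change 0.28, SE 0.0401, adjusted p = 1.14e-08). Lrp6 had 140.2, 152 and 147 CPM in I-KO and 159, 152 and 145 CPM in I-WT libraries, which overlapped (-0.06, SE 0.0444, adjusted p = 0.289). Its sign was positive with library totals (0.076).

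Ror1, Ror2 and Ryk, receptors that carry signals without beta-catenin, were all lower. Fzd6, linked to tissue polarity, was higher, as given above. Ror1, a receptor tyrosine kinase of Wnt5a, had 0.638, 1.62 and 1.39 CPM in I-KO and 10.8, 10.3 and 11.5 CPM in I-WT libraries. The groups lay far apart, with a log2 fold change of -3.13 (SE 0.227, adjusted p = 4.44e-19). Its partner Ror2 had 6.26, 6.73 and 5.07 CPM in I-KO and 17.6, 19.8 and 17.7 CPM in I-WT libraries (-1.63, SE 0.139). Ryk, a receptor with an inactive kinase domain, differed less, with 121, 132 and 134 CPM in I-KO and 164, 162 and 154 CPM in I-WT libraries (-0.31, SE 0.0451, adjusted p = 2.06e-08). Per length Ryk was by far the highest of these 3, at 41.3 ± 2.28 FPKM in I-KO and 46.7 ± 1.80 FPKM in I-WT, against 1.58 ± 0.219 and 4.41 ± 0.326 FPKM for Ror2.

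**Figure D2:**
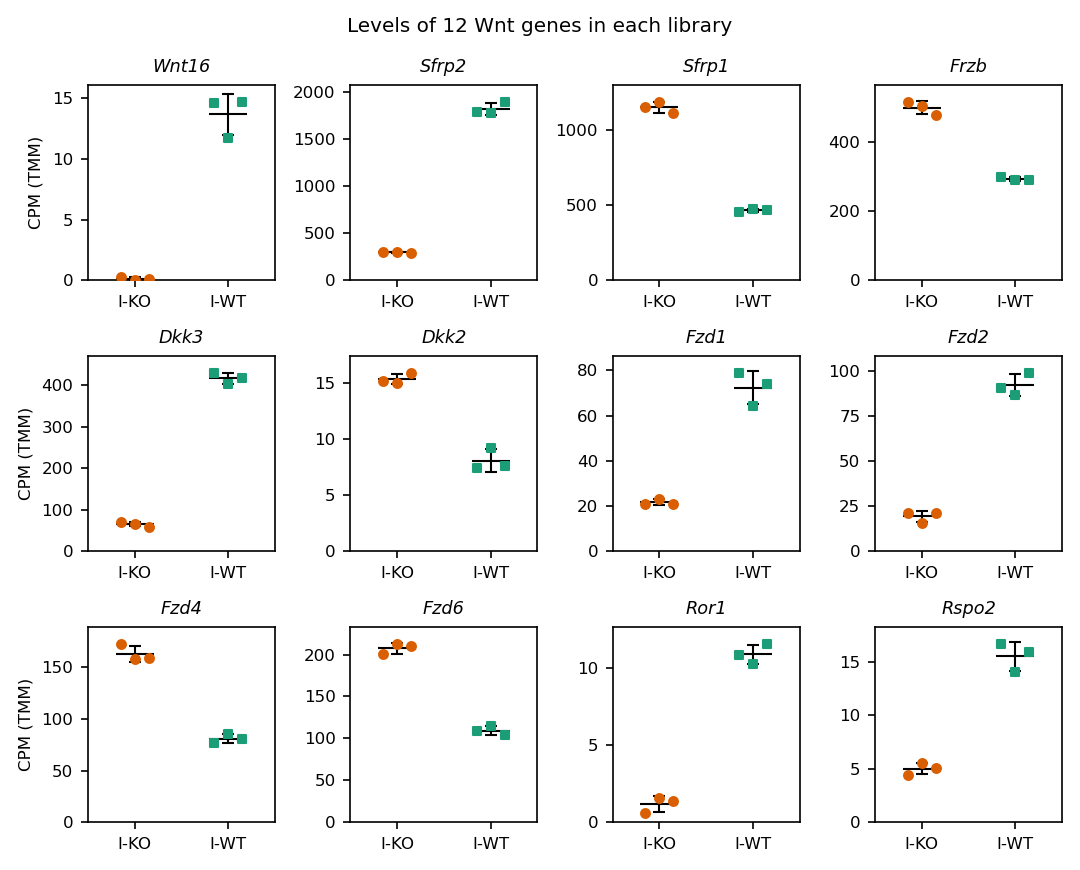
CPM (TMM) of 12 Wnt genes in each I-KO library (circles, left) and each I-WT library (squares, right), with the mean and SD as bars and every axis starting at 0. In each panel the 3 I-KO points are apart from the 3 I-WT points: Sfrp1, Frzb, Dkk2, Fzd4 and Fzd6 are higher in I-KO, the other 7 lower.

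The largest values in the whole set belonged to the SFRP family. Sfrp2 was lower without Ncor1, and Sfrp1 and Frzb were higher. Sfrp2 had 299, 302 and 291 CPM in I-KO and 1788, 1774 and 1889 CPM in I-WT libraries. Every I-KO library was about equally low, 6.12-fold under I-WT (log2 fold change -2.61, SE 0.0341, adjusted p = 3.82e-58). Sfrp1 went the other way, with 1155, 1185 and 1112 CPM in I-KO and 452, 477 and 469 CPM in I-WT libraries (1.30, SE 0.0332, adjusted p = 2.36e-42). Frzb, also known as SFRP3 and first described in cartilage, was likewise higher in every I-KO library, with 514, 502 and 478 CPM in I-KO and 299.7, 291 and 290.2 CPM in I-WT libraries (0.76, SE 0.0357, adjusted p = 3.71e-28). Of the low-expressed family, Sfrp4 had 2.04, 1.21 and 1.39 CPM in I-KO and 8.38, 6.05 and 10.4 CPM in I-WT libraries (-2.40, SE 0.241), and Sfrp5 had 1 count in all. Wif1, Wnt inhibitory factor, had 31 counts in I-KO and 99 in I-WT, a ratio of 3.49 (exact 95% interval 2.31 to 5.40).

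Per length, Sfrp2 held 25.6%, 25.7% and 26.1% of the summed SFRP family FPKM in I-KO against 81.1%, 80.9% and 81.8% in I-WT libraries. Sfrp1 held 44.5% ± 0.424 in I-KO and 9.29% ± 0.349 in I-WT, and Frzb 29.6% ± 0.488 in I-KO and 9.004% ± 0.358 in I-WT (SD, n = 3 each). None of these 3 shares overlapped between the groups (exact two-sided permutation p = 0.1 each, the smallest possible). The 3 genes were all called in these same libraries, so the separation of their shares gives no separate support. Shares of 1 sum also depend on each other: a smaller share of Sfrp2 leaves larger ones for the rest. The family sum was lower in I-KO, at 608, 612 and 586 FPKM against 1050.5, 1050.2 and 1091 FPKM in I-WT libraries, a ratio of 0.566. By level the order was Sfrp1, Frzb, Sfrp2 in I-KO (268 ± 7.45, 178 ± 5.76 and 155 ± 2.29 FPKM). In I-WT it was Sfrp2 first (865 ± 24.2 FPKM), with Sfrp1 (98.8 ± 2.88) and Frzb (95.7 ± 1.97) within their spread of each other.

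**Figure D3:**
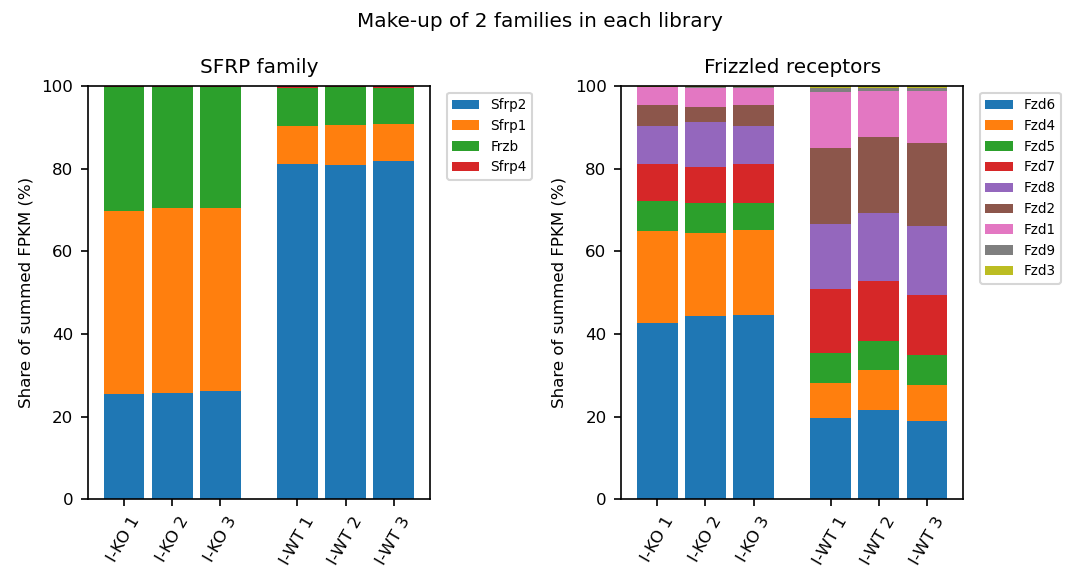
Share of the summed FPKM (%) taken by each gene of the SFRP family (left) and of the Frizzled receptors (right), 1 bar per library, I-KO libraries left of I-WT libraries (Sfrp5 and Fzd10, with 1 count each, are not drawn). Sfrp2 fills 25.6% to 26.1% of the I-KO bars against 80.9% to 81.8% of the I-WT bars, and Fzd6 with Fzd4 fill 64.4% to 65.2% of the I-KO bars against 27.7% to 31.2% of the I-WT bars.

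Of the Dickkopf genes, Dkk3 was lower without Ncor1 and Dkk2 higher. Dkk3, a divergent member whose action on Wnt signals is less settled, had 70.1, 65.8 and 59.7 CPM in I-KO and 428, 403 and 417 CPM in I-WT libraries. It was 6.41-fold lower, with all I-KO libraries far below I-WT (log2 fold change -2.68, SE 0.0455, adjusted p = 2.07e-51). Dkk2, which binds the LRP co-receptors, had 15.2, 15.1 and 15.9 CPM in I-KO and 7.45, 9.26 and 7.60 CPM in I-WT libraries, higher in each I-KO library (0.93, SE 0.134, adjusted p = 1.96e-08). Dkk1, the best known inhibitor of the family, had 6, 7 and 8 counts in I-KO and 2, 3 and 4 in I-WT libraries, too few to be tested, a scaled ratio of 2.14 (exact 95% interval 0.939 to 5.30). Dkk4 had 0 counts. Over SFRP, WIF1 and Dickkopf genes together, 3 of 7 tested antagonists were higher and 4 lower, against 26.4% and 26.2% of all tested genes.

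Both tested R-spondins were lower and their receptors divided. Rspo2 had 4.47, 5.52 and 5.07 CPM in I-KO and 16.6, 14.0 and 15.9 CPM in I-WT libraries (log2 fold change -1.63, SE 0.149, adjusted p = 6.26e-15). Rspo3, an R-spondin needed for vessel development, had 7 counts in I-KO and 39 in I-WT, a ratio of 6.08 (exact 95% interval 2.69 to 16.1, adjusted p = 1.82e-05). Both were lower in every I-KO library, while Rspo1 had 3 counts in all and Rspo4 none. Rspo3 passed the filter on low counts through I-WT libraries alone, so it could come out only lower. Lgr4, the main R-spondin receptor here, had 11.2, 9.42 and 11.3 CPM in I-KO and 25.5, 28.3 and 28.1 CPM in I-WT libraries (-1.34, SE 0.109). Lgr6 was higher, with 5.23, 5.79 and 5.47 CPM in I-KO and 2.56, 3.22 and 2.19 CPM in I-WT libraries (1.04, SE 0.222, adjusted p = 6.2e-05). Lgr5, a stem cell marker in the gut, had 7, 6 and 12 counts in I-KO and 4, 4 and 1 in I-WT libraries, under the filter. As a share of the summed FPKM of the 3 receptors, Lgr4 held 68.7% ± 2.58 in I-KO and 92.4% ± 1.73 in I-WT (SD, n = 3 each).

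Of the intracellular genes, Tcf7 was lower and both others were barely detected. Tcf7, a partner of beta-catenin on DNA, had 4.98, 6.87 and 4.27 CPM in I-KO and 10.2, 8.49 and 10.2 CPM in I-WT libraries (log2 fold change -0.87, SE 0.17, adjusted p = 1.29e-05). Axin2, the feedback inhibitor most often read as a sign of beta-catenin activity, had 4, 3 and 3 counts in I-KO and 2, 3 and 4 in I-WT libraries. Its scaled ratio was 1.02 (exact 95% interval 0.372 to 2.83, counting error only), so these few counts leave any ratio within that interval possible. Lef1 had 5 counts in each group.

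**Figure D4:**
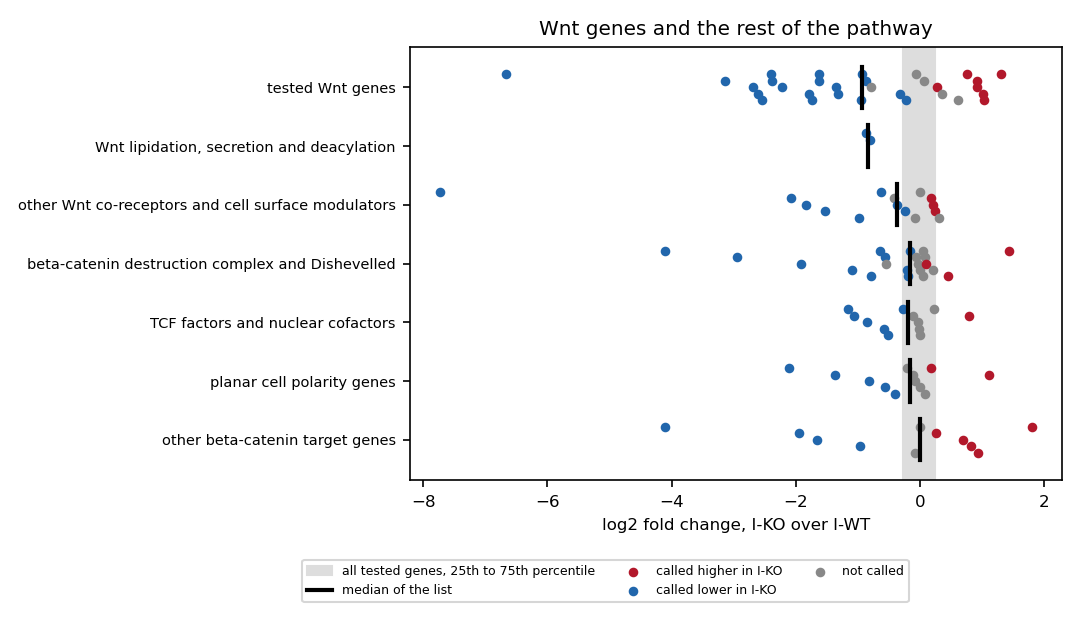
Log2 fold change, I-KO over I-WT, of the tested Wnt genes (top) and of the tested genes of 6 other pathway lists, with list medians as bars and the middle range of all tested genes (-0.26 to 0.24) shaded. The median of the Wnt genes is -0.93 and that of the other beta-catenin targets 0.0074, and the point farthest left is Sost, whose fitted value rests on 0 counts in I-KO.

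The other genes of the pathway had list medians from -0.84 to 0.0074. The counts in these lists stand against 26.4% higher and 26.2% lower, or 52.6% called in all, over all tested genes. In Wnt secretion, both tested genes of 3 were lower: Wls, the carrier that brings Wnts to the surface, with 78.1 ± 6.25 CPM in I-KO and 136 ± 12.1 CPM in I-WT (log2 fold change -0.81, SE 0.0581), and Porcn, the enzyme that attaches the lipid, with -0.87 (SE 0.277). Porcn lost its call without I-KO replicate 3 (adjusted p = 0.0529), without I-WT replicate 2 (0.104), by DESeq2 (0.0576) and by limma on log2(FPKM + 1) without a filter (0.0887). Among other co-receptors and surface modulators, 3 of 15 tested genes were higher and 8 lower (73.3% called against 52.6% of all genes; median -0.37). Cthrc1, a secreted helper of Wnt binding, was lower by log2 fold change -1.83 (SE 0.0504), the glypican Gpc6 by -1.52 and the membrane protein Reck by -0.63. Sost, which encodes the LRP inhibitor sclerostin, had 0 counts in I-KO and 76 in I-WT, at least 27.6-fold lower against a floor of 3 counts over the I-KO group. Sost passed the filter through I-WT libraries alone. Of the destruction complex and Dishevelled list, 3 of 21 were higher and 10 lower (61.9% called against 52.6%; median -0.15). Nkd1, a feedback inhibitor that binds Dishevelled, had 0.570 ± 0.150 CPM in I-KO and 9.85 ± 1.51 CPM in I-WT (-4.10, SE 0.276), and Dact3 (-1.92), Dact1 (-2.95) and Amer1 (-1.09) were lower as well. Nkd1 and Dact1 passed the filter through I-WT libraries alone, so both could come out only lower. The mRNA of beta-catenin, Ctnnb1, differed little, with 543 ± 4.70 CPM in I-KO and 507 ± 9.23 CPM in I-WT (0.10, SE 0.033, adjusted p = 0.0108).

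TCF factors and nuclear cofactors had 1 of 12 higher and 6 lower (58.3% called, near the 52.6% of all genes; median -0.19), with Bcl9l (-0.86), Tle2 (-1.06), Tcf7l2 (-0.58) and Tle1 (-0.51) lower. Planar cell polarity genes had 2 of 12 higher and 5 lower (58.3% called, likewise near the background; median -0.15). Prickle1, a core polarity gene, was lower by log2 fold change -2.11 (SE 0.149), Daam2 by -1.37 and Celsr2 by -0.56, and Daam1 was higher by 1.12, with groups that overlapped. Daam1 lost its call without I-KO replicate 3 (adjusted p = 0.0542) and without I-WT replicate 2 (0.0505), and Celsr2 without I-KO replicate 2 (0.0698). By limma on log2(FPKM + 1) without a filter both lost it, with adjusted p = 0.115 for Daam1 and 0.292 for Celsr2. Known beta-catenin targets were called in both directions: of 11 tested, 5 were higher and 4 lower (81.8% called against 52.6%; median 0.0074). Sp5 had 73.6 ± 3.18 CPM in I-KO and 21.0 ± 3.23 CPM in I-WT (1.81, SE 0.078), and Ccnd1, encoding cyclin D1, had 939.6 ± 19.0 CPM in I-KO and 488 ± 5.38 CPM in I-WT (0.95, SE 0.0323). Wisp1, by contrast, had 63.0 ± 2.10 CPM in I-KO and 243 ± 6.67 CPM in I-WT (-1.95, SE 0.0466), and Nkd1, also counted above, was lower. Beside these lists, the endothelial marker sum was 8000 to 8161 CPM in I-KO against 2384 to 2476 CPM in I-WT libraries. The smooth muscle marker sum was 3919 to 4123 CPM in I-KO against 11531 to 11724 CPM in I-WT libraries. A link of either sum to these lists was not tested.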

How the data were processed

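RNA was extracted with Trizol and sequenced from standard Illumina libraries, per the labels' protocols. Per the submitters' processing notes, alignment tools include HISAT2 2.0, with mm9 as the build. No source used here gives the read counter, annotation or use of strand, so reads of overlapping or antisense genes could not be separated. The authors deposited whole-number counts per gene symbol, 1 column per library, and FPKM values for the same genes. FPKM equalled count divided by library total and by 1 length per gene, with a relative spread of at most 1.05e-05.

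Deposited counts were not altered. Of 23349 genes with a count, 13323 passed filterByExpr of edgeR 4.0.16 (R 4.3.3; a CPM of 1.28 in 3 libraries) and were fitted with TMM factors, robust dispersions and the robust quasi-likelihood test, two-sided, adjusted by Benjamini-Hochberg. SEs were derived from the F statistic. Group sums of few counts were compared by exact 95% intervals conditional on their total. Code was tested on simulated data. Wnt genes, lists, named genes (called with at least 5 CPM, or at least 20 CPM; from each pathway list up to 4 called genes with the smallest adjusted p; Ctnnb1 and Ndp were added after their values were seen) and alternatives were chosen with earlier results of these data known. The genes in the plot of levels, the printed promoters and the motifs AGGTCA and TATAAA were picked after values or matches were seen. List symbols were matched to older names in the table through the RefSeq gene table after a first run, which added tested genes to the surface modulator and macrophage lists. Alternatives were RLE factors, library totals, 2 other count filters, DESeq2 1.42.0, limma 3.58.1 on log2(FPKM + 1) and log2(FPKM + 0.1), each library left out and the replicate number as a block. No libraries were treated as duplicates, since replicates had a chi-square of 1.38 to 1.84 per degree of freedom. CPM use library sizes summed over the genes that passed the filter.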

Additional observations from a re-analysis of the deposited data

How the results depend on the processing

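The counts of 7 higher and 19 lower Wnt genes were the same with RLE factors, with both other count filters and by DESeq2. They were 7 and 18 with library totals, and 7 and 18 by limma on log2(FPKM + 1) without a filter. By FPKM with a filter, at either pseudocount, 23 Wnt genes were tested, 6 higher and 15 lower. Leaving out 1 library at a time gave 7 higher and 19 to 20 lower, and all 26 calls remained in each of these 6 fits. If the libraries of a group are technical replicates, these 6 fits do not measure the spread between mice. Over all genes, 5305 were higher with library totals against 3512, and 2014, 2000 and 2138 were lower by log2(FPKM + 1), log2(FPKM + 0.1) and log2(FPKM + 1) without a filter against 3492; FPKM is scaled by library totals, and the share of higher calls was 68.8% to 70% in these fits. Lrp6 turned sign, to 0.076 with library totals, 0.074 by log2(FPKM + 1) with and without a filter and 0.078 by log2(FPKM + 0.1). Wnt2b turned to -0.11 without I-KO replicate 3 and -0.029 without I-WT replicate 3, in a range of -0.11 to 0.22 over the 6 fits. Fzd5 lost its call in all 4 fits scaled by library totals (adjusted p = 0.193 to 0.407). The fit with the replicate number as a block gave 7 higher and 19 lower Wnt genes and 3509 higher and 3486 lower genes. Same-numbered libraries correlated at 0.00398 to 0.0232 in their deviations from the group mean, and differently numbered ones at -0.0239 to 0.00664. Values this near 0 show no clear pairing by number, and they cannot exclude one. Depth limits genes with few counts: 15 Wnt genes with 1 to 34 counts over the 6 libraries could not be tested, Axin2 and Lef1 among them.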
